A study of Homo sapiens with 2 samples.

Results

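The COL3A1-high cells of treatment-naïve attached SUM159 cultures were examined, defined as cells of the naïve attached matrix with 20 or more unique molecular identifiers (UMIs, each standing for 1 captured transcript molecule) of COL3A1, the gene for the alpha chain of type III collagen. This rule took 412 of the 5305 cells of that matrix, and the whole series held 30122 cells. Every value below compares these 412 cells with the other 4893 cells of the same matrix, with COL3A1 left out of the genes and of the totals. The cells were chosen by their own COL3A1 UMIs, a measured value.

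SUM159 is a triple-negative breast cancer cell line, labelled Wt in genotype and kept in Ham's medium with serum, insulin and hydrocortisone. The series held 6 populations on 2 cartridges: naïve, paclitaxel-resistant and doxorubicin-resistant cells, grown attached on 1 cartridge and as spheroids in Matrigel on the other. The naïve cells had no drug, and resistance came from prolonged exposure to rising doses. A targeted breast cancer panel was counted. Genes not listed in the naïve attached matrix, such as ZEB1, TP63, LUM and POSTN, were not analysed here, and whether the panel holds them was not checked. Each population was measured once, in 1 cell line, so the values below have no replicate check. Cells are not replicates, intervals cover counting error only, and no p-value is given.

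Type III collagen is a fibrillar collagen that is co-assembled with type I collagen in loose connective tissue and is a product of fibroblasts and other mesenchymal cells. Decorin, encoded by DCN, is a small proteoglycan that binds collagen fibrils, and PDGFRB encodes the receptor through which platelet-derived growth factor drives mesenchymal cells to divide and migrate. Carcinoma cells that pass through an epithelial-to-mesenchymal transition lose epithelial adhesion genes and gain such matrix genes, often in part only.

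COL3A1 was concentrated in few cells. Of the 5305 naïve attached cells, 3183 (60%) had 0 COL3A1 UMIs, and the 412 COL3A1-high cells, 7.77% of the matrix (95% Clopper-Pearson interval 7.06 to 8.52%), held 35031 of its 42087 COL3A1 UMIs, or 83.2%. Within the COL3A1-high cells the median was 42 UMIs, the quartiles were 28 and 100.5, and the highest cell had 776. Median depth was close in the groups: without COL3A1, the median was 3681.5 UMIs in COL3A1-high cells and 3708 in the other cells, with 133 and 135 genes detected. The deepest 5% of barcodes took in 8.50% of COL3A1-high and 4.72% of other cells.

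**Figure D1:**
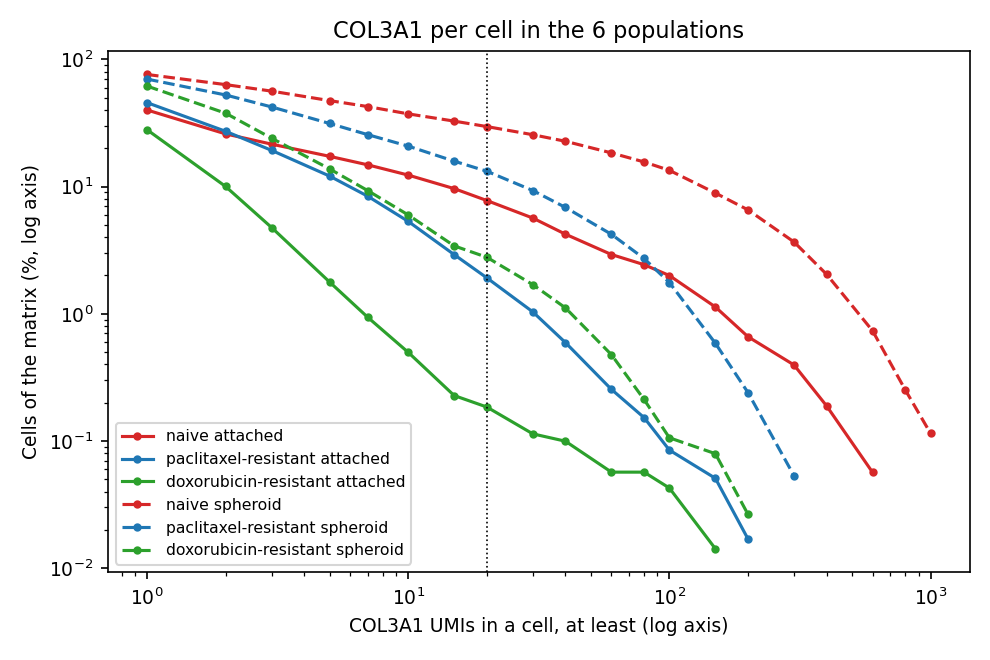
Share of cells (y axis, percent, log scale) with at least a given number of COL3A1 UMIs (x axis, log scale) in each of the 6 populations; solid lines are attached and dashed lines spheroid cultures, and the dotted line marks 20 UMIs. The naïve attached line passes 7.77% at the threshold and falls without a step on either side of it.

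The other 3 markers given for this state were present. COL1A1, a type I collagen chain gene, was detected in 409 of 412 COL3A1-high cells (99.3%), with a median of 18 UMIs and a highest value of 341. The median was 5 UMIs in the other cells. PDGFRB was detected in 82.0% (78.0 to 85.6%) against 47.4% of cells, with medians of 4 and 0 UMIs. DCN was detected in 43.4% (38.6 to 48.4%) against 11.9%, so that more than 1 in 2 COL3A1-high cells had no DCN UMI. With each cell thinned to 1000 UMIs, which left out 1 COL3A1-high cell, the shares were 92.4% against 70.8% for COL1A1, 58.7% against 21.4% for PDGFRB, and 26.0% against 5.35% for DCN. For comparison, KRT14 had a UMI in 8.75% of the paclitaxel-resistant attached cells of the same cartridge, at 34.6 CPM (UMIs per 1000000 of the group). Their median depth was 3653 UMIs. Whether those UMIs were background or expression was not tested, and 1 gene gives no background rate for the 3 markers. All 3 markers were detected in 154 COL3A1-high cells (37.4%) and in 360 other cells (7.36%), and none in 1 COL3A1-high cell and 210 others. The cells are therefore called COL3A1-high, and mesenchymal only in the sense of these markers.

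A size rule was applied across the panel: a CPM ratio of 2 or more either way, at least 50 UMIs in the higher group, and a 95% exact binomial interval of the ratio that left out 1. Of 231 measured genes, 20 were higher in COL3A1-high cells (8.66%) and 20 were lower (8.66%). The median log2 ratio over the 231 genes was −0.10, and the interval lay above 1 for 73 genes (31.6%) and below 1 for 104 (45.0%). Because COL3A1 chose the cells from the same counts, these ratios describe the cells and test nothing.

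**Figure D2:**
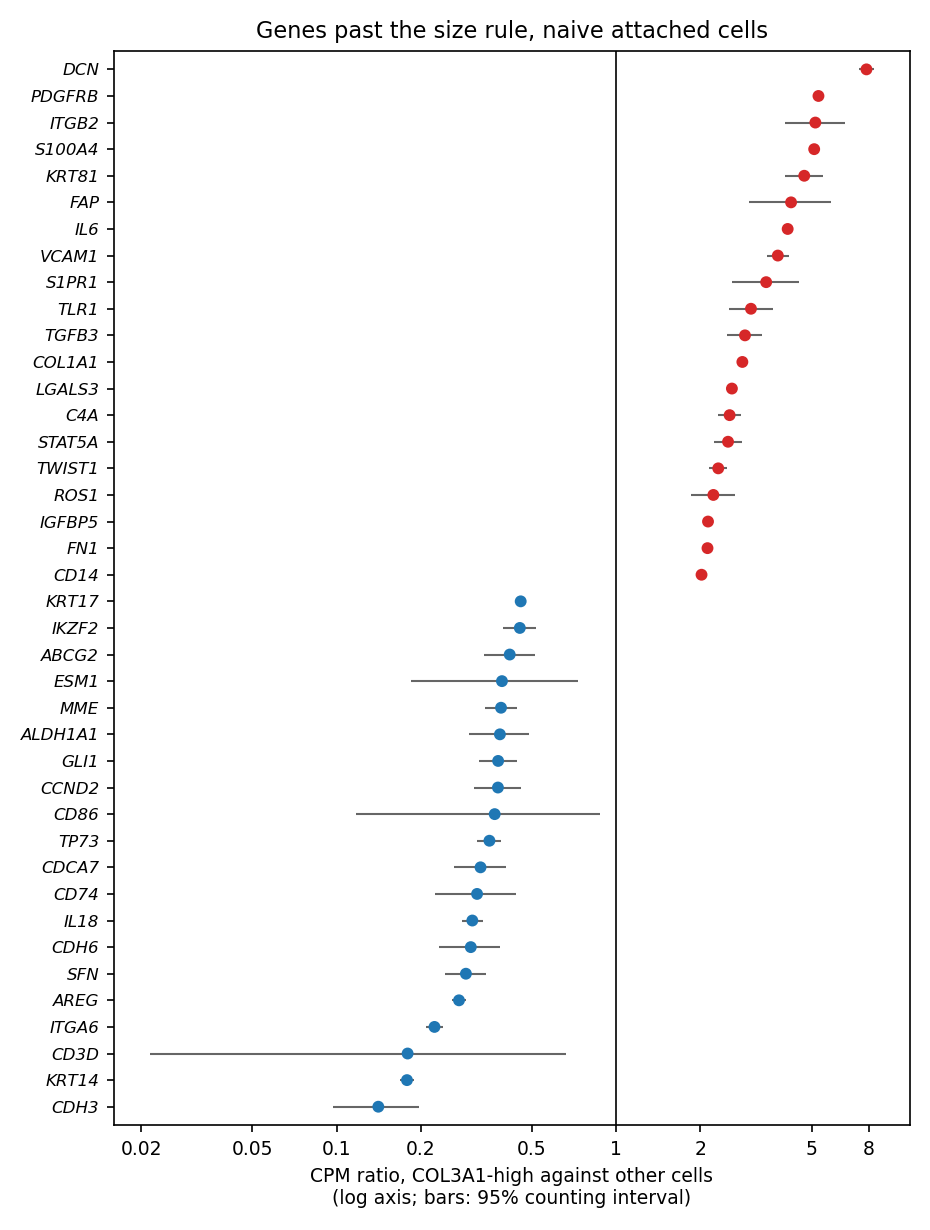
CPM ratio of COL3A1-high to other naïve attached cells (x axis, log scale) for the 40 genes past the size rule; points are ratios and bars are 95% counting intervals, red higher and blue lower. DCN is at the top with 7.85 and CDH3 at the bottom with 0.141; CD3D and CD86 have the widest bars.

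Matrix genes made up the first group. Of 12 measured genes for fibrillar collagens and secreted matrix, 4 were higher and none was lower past the rule, with a median log2 ratio of 0.52 against −0.10 for the panel. DCN had 1915 UMIs in COL3A1-high cells (1111 CPM) and 2779 in the others (141 CPM), a ratio of 7.85 (7.41 to 8.33), or 13.0 among cells between the quartiles of depth. COL1A1 stood at 6605 against 2336 CPM, a ratio of 2.83 (2.77 to 2.89). FN1, which encodes the matrix glycoprotein fibronectin and had a UMI in every cell of both groups, stood at 45464 against 21431 CPM, a ratio of 2.12 (2.10 to 2.14), with medians of 137.5 and 60 UMIs per cell. FAP, a surface protease best known from activated fibroblasts, had a ratio of 4.22 (2.99 to 5.88) from 50 and 135 UMIs, right at the minimum, and missed the rule in 5 of the alternative settings. Other matrix genes moved less or the other way: PLAU, the urokinase protease gene, had a ratio of 1.51, THBS1 1.09, and the gelatinase gene MMP2 0.802. The matrix genes thus did not go one way.

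Among 15 measured mesenchymal surface, cytoskeletal and contractile genes, 3 were higher and 2 were lower, and the median log2 ratio was 0.08. PDGFRB stood at 1823 against 345 CPM, a ratio of 5.29 (5.07 to 5.52). S100A4, a calcium-binding protein gene often used as a fibroblast marker, stood at 4903 against 960 CPM, a ratio of 5.11 (4.98 to 5.24). S100A4 had a median of 8 UMIs against 1, and was detected in 89.3% against 55.0% of cells (71.2% against 29.9% when thinned). VCAM1, a vascular and stromal adhesion molecule gene, had a ratio of 3.79 (3.45 to 4.15) and was detected in 40.3% against 13.4% of cells (21.5% against 6.30% when thinned). The genes that a mesenchymal cytoskeleton rests on were not higher: VIM had a ratio of 0.738 and ACTA2, the smooth muscle actin gene, 0.866, while CAV1 had 1.17. The 2 lower genes were MME, the gene for the surface peptidase CD10, with 2.58-fold lower CPM, and CDH6, a cadherin gene, with 3.31-fold lower CPM.

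Of the 4 platelet-derived growth factor genes, PDGFRB alone passed the rule. The other receptor gene, PDGFRA, had a ratio of 1.26 (1.21 to 1.31). The ligand gene PDGFA had a ratio of 0.60 (0.558 to 0.645), and PDGFB had 14 and 190 UMIs, with an interval of 0.451 to 1.44. The intervals of both receptor genes lay above 1, that of PDGFA lay below 1, and that of PDGFB held 1.

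Among 7 measured genes for transition transcription factors and TGF-beta signalling, TGFB3 and TWIST1 were higher, none was lower past the rule, and the median log2 ratio was −0.27. TGFB3 encodes a TGF-beta ligand and had a ratio of 2.89 (2.5 to 3.33). TWIST1, a transcription factor of the mesenchymal programme, stood at 509 against 220 CPM, a ratio of 2.32 (2.15 to 2.49), and was detected in 72.3% against 46.9% of cells (37.4% against 18.3% when thinned). SNAI2, another factor of that programme, had a ratio of 0.690, ID1, a TGF-beta and BMP target, 0.546, and TCF4 0.545. Of the insulin-like growth factor genes, IGFBP5, a secreted binding protein gene, was higher at 14590 against 6849 CPM (2.13, 2.10 to 2.16), while IGFBP3 had 1.11, IGF1R 1.06 and IGFBP7 0.831.

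Genes of other functions were also higher. IL6, an inflammatory cytokine gene, had a ratio of 4.11 (4.03 to 4.18) and was the only one of 16 measured cytokine and chemokine genes to be higher past the rule. Its UMIs were unevenly spread: the median COL3A1-high cell had 5 IL6 UMIs, the highest had 687, and the 10% of cells with most IL6 held 64.3% of them. The list's median log2 ratio was 0.04, with CSF1 at a ratio of 1.63, CXCL8 at 1.43, and IL18 lower by 3.27-fold. C4A, a complement component gene whose counts cannot be told from those of its near-identical neighbour C4B, had a ratio of 2.55. LGALS3, the gene for galectin-3, had a ratio of 2.59, S1PR1, a sphingosine phosphate receptor gene, 3.44, TLR1, a toll-like receptor gene, 3.03, STAT5A, a cytokine-activated transcription factor gene, 2.51, and ROS1, a receptor tyrosine kinase gene, 2.23. MLPH (49 and 81 UMIs, ratio 6.90) and RUNX3 (48 and 98 UMIs, ratio 5.58) stood just under the minimum of 50 UMIs. These 2 were chosen for mention after their values were seen.

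Basal epithelial genes were mostly lower. Of 9 measured genes, 7 were lower and 1 was higher, with a median log2 ratio of −1.79, and 8 of the 9 intervals lay below 1. CDH3, the P-cadherin gene, had 34 UMIs in COL3A1-high cells (19.7 CPM) and 2748 in the others (140 CPM), 7.09-fold lower (5.06 to 10.3). KRT14, a basal keratin gene, stood at 692 against 3875 CPM, 5.60-fold lower (5.29 to 5.93), a ratio of 0.179 that became 0.0944 between the quartiles of depth. ITGA6, the gene for the integrin alpha chain that binds laminin, stood at 485 against 2165 CPM, 4.46-fold lower (4.17 to 4.79), with medians of 1 and 7 UMIs per cell. TP73, a transcription factor gene of the p53 family that is active in basal cells, stood at 234 against 665 CPM, 2.84-fold lower (2.57 to 3.14). AREG, which encodes the EGF receptor ligand amphiregulin, was 3.65-fold lower (a ratio of 0.274, and 0.122 between the quartiles of depth), SFN, the 14-3-3 sigma gene, 3.45-fold lower, and KRT17 2.20-fold lower. EGFR had a ratio of 0.651, short of the rule.

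The difference showed in the number of cells as well as in the sums. KRT14 had a UMI in 24.3% (20.2 to 28.7%) of COL3A1-high cells and 62.3% of the others (12.9% against 48.1% when thinned), both above the 8.75% of the paclitaxel-resistant cells. ITGA6 was detected in 58.0% against 91.8% (29.0% against 75.1% when thinned), TP73 in 37.6% against 75.7% (15.8% against 43.0%), AREG in 27.4% against 56.3% (13.1% against 39.2%), and CDH3 in 5.58% against 20.9% (1.84% against 9.33%). In the paclitaxel-resistant attached cells CDH3 itself had a UMI in 3.82% of cells, at 10.8 CPM. None of TP73, CDH3, ITGA6 and KRT14 had a UMI in 124 COL3A1-high cells (30.1%, 25.7 to 34.8%) and in 228 other cells (4.66%), while all 4 had one in 8 (1.94%) and 689 (14.1%).

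Not all keratin genes were lower. KRT81, a hair-type keratin gene placed in the basal list, was the 1 higher member, with a ratio of 4.71 (4.01 to 5.51), but 1 cell held 43 of its 225 UMIs and 15% of COL3A1-high cells had any. KRT5, the usual partner of KRT14, had 27 and 58 UMIs and was too rare to be measured. The luminal list, with 12 measured genes, had none past the rule and a median log2 ratio of −0.00, with 4 intervals above 1 and 4 below. MLPH, with a log2 ratio of 2.79, and MUC1 were its highest members. KRT18, with a ratio of 0.740, and ERBB2 were its lowest. CDH1 and KRT19, with 0 UMIs in COL3A1-high cells, were not among the measured genes. Keratin family members are close in sequence, and how reads shared between them were assigned is not given in the methods.

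For genes past the rule, promoter sequence was taken from RefSeq on GRCh38.p14, where the table held 12 of the 20 higher and 13 of the 20 lower genes. The 120 bases ahead of the annotated start are shown, 5′ to 3′ on the gene's strand, for 3 higher genes and 3 lower genes of the lists above, to set the proximal promoters of both directions side by side; capitals mark TATAAA or CCAAT on either strand.
PDGFRB, chr5:150155846-150155965, minus strand: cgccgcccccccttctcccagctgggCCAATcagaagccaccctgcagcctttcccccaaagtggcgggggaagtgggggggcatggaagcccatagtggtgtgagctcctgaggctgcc
S100A4, chr1:153545807-153545926, minus strand: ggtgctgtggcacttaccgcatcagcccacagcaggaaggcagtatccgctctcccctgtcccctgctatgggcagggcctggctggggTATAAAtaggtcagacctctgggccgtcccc
IL6, chr7:22727080-22727199, plus strand: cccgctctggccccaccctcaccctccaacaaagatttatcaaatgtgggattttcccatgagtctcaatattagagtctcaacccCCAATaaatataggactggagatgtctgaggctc
ITGA6, chr2:172427216-172427335, plus strand: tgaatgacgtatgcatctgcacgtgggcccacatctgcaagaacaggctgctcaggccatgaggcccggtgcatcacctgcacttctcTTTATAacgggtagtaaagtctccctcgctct
TP73, chr1:3652396-3652515, plus strand: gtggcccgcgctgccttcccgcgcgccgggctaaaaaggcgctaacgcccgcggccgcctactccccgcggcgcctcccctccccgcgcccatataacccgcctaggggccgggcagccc
AREG, chr4:74445016-74445135, plus strand: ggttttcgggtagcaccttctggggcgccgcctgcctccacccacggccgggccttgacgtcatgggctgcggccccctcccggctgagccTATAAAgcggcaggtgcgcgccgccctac
In the 250 bases ahead of the start, CCAAT on either strand was present in 5 of 12 higher genes (41.7%: FN1, IL6, PDGFRB, ROS1 and S1PR1) and 2 of 13 lower genes (15.4%: ALDH1A1 and CD74), against 33.0% of all 27305 promoters of the table. TATAAA was present in 2 of 12 higher genes (16.7%) and 3 of 13 lower genes (23.1%), against 11.1% of all. The match describes letters in these windows and nothing more. The genes of the leading matrix and basal lists also include COL3A1 (chr2:188974373-189012746), DCN (chr12:91140484-91182817), COL1A1 (chr17:50184101-50201631), KRT14 (chr17:41582279-41586895) and CDH3 (chr16:68645310-68733771).

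No cell cycle gene was higher past the size rule. Of 17 measured G2 and mitosis genes, none passed the rule in either direction, but 15 intervals lay below 1, and the median log2 ratio was −0.30. MKI67, the proliferation marker, had 379 and 4303 UMIs and a ratio of 1.00 (0.902 to 1.12), and CDC20, an activator of the anaphase ligase, had 0.576. Of 16 measured G1/S and replication genes, CCND2, a D-type cyclin gene (2.65-fold lower), and CDCA7, a chromatin factor of cycling cells (3.06-fold lower), were past the rule, 4 intervals lay above 1 and 8 below, and the median log2 ratio was −0.11.

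Among 7 measured stem cell markers, ALDH1A1 was 2.61-fold lower (a ratio of 0.384, and 0.172 between the quartiles of depth) and none was higher. Of the 2 measured efflux transporters, ABCG2 was 2.40-fold lower at 55.1 against 132 CPM, and ABCB1, the P-glycoprotein gene, had a ratio of 0.967 (0.845 to 1.10). The p53 and apoptosis list had 1 of 10 measured genes past the rule, SFN. Of 5 angiogenic factors ESM1 was lower (10 and 292 UMIs, 2.56-fold), and VEGFA had a ratio of 0.603. Of 6 interferon and antigen presentation genes, CD74, the invariant chain gene, was 3.14-fold lower (a ratio of 0.318, and 0.101 between the quartiles of depth). GLI1, a hedgehog target gene, was 2.64-fold lower and IKZF2, a lymphoid transcription factor gene also found outside lymphocytes, 2.21-fold lower. GAPDH, the most abundant gene of the whole matrix, had a ratio of 0.866.

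Markers of other cell types were at trace level, apart from CD14, ITGB2 and FCRLA. Whether the UMIs of these genes were background or expression was not tested. CD14, an endotoxin receptor gene, stood at 1309 against 648 CPM (2.02, 1.93 to 2.11) and was detected in 67.5% against 41.3% of cells. ITGB2, the leukocyte integrin beta chain gene, had 95 and 210 UMIs (5.16, 4.00 to 6.6) and was detected in 16.0% against 3.62%. Of the other 7 myeloid markers in the matrix none was measured: CCR2 had 0, LYZ 1, C1QA 2, CX3CR1 3, FCGR3A 4, ITGAX 8 and GPNMB 13 UMIs in all 412 cells, and PTPRC, carried by all leukocytes, had 1. The 9 myeloid genes summed to 1382 CPM in COL3A1-high and 675 CPM in other cells, nearly all of it CD14. The 12 T and NK genes summed to 8.70 and 9.77 CPM, with CD28, CD3E, CD8A, GNLY and LCK at 0; CD3D passed the rule as lower on 2 and 127 UMIs, a ratio of 0.180 (0.0215 to 0.662). Of the B lineage genes CD79B, JCHAIN and TCL1A were at 0, and FCRLA, at 2580 against 1685 CPM, made up most of that list's sum. CD86 was lower on 5 and 155 UMIs, and VWF, the endothelial marker in the matrix, had 0 and 17.

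The genes were then followed along COL3A1 itself, in bins of 0, 1 to 4, 5 to 9, 10 to 19, 20 to 49, 50 to 99 and 100 or more UMIs per cell, which held 3183, 1205, 264, 241, 236, 70 and 106 cells. Levels already differed between bins below the threshold. PDGFRB stood at 190 CPM in cells with no COL3A1, 390 at 1 to 4 UMIs and 1159 at 5 to 9 UMIs, stayed near that level to 49 UMIs (1192 and 1245 CPM), and was higher again at 1897 and 3052 CPM in the last bins. COL1A1 went from 1681 to 5314 CPM by 5 to 9 UMIs and reached 7239 CPM at 100 or more. DCN stood at 57.5, 108, 589, 900, 589, 840 and 2441 CPM, so its highest level lay in the last bin. ITGA6 was lower in each bin than in the one before, from 2510 to 346 CPM, and KRT14 went from 4735 to 362 CPM at 50 to 99 UMIs and 438 CPM beyond. MKI67 stayed between 208 and 244 CPM in all 7 bins.

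**Figure D3:**
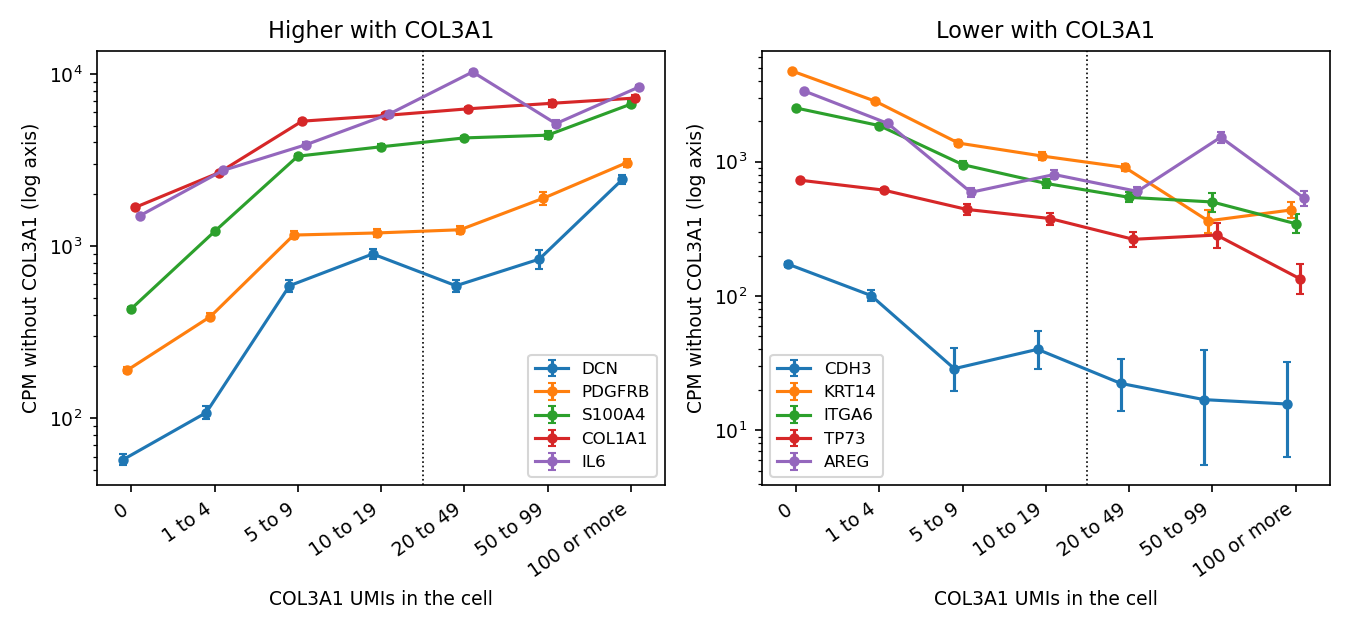
Levels (y axis, CPM without COL3A1, log scale) of 5 genes higher (left) and 5 genes lower (right) in COL3A1-high cells, by COL3A1 UMIs in the cell (x axis); points are summed levels, bars 95% Poisson intervals, and the dotted line the threshold. On the log scale PDGFRB and ITGA6 already differ between 0 and 5 to 9 UMIs, and DCN is highest at 100 or more.

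At the threshold itself, the 99 cells with 15 to 19 COL3A1 UMIs and the 59 cells with 20 to 24 had PDGFRB at 1177 and 1253 CPM, COL1A1 at 5737 and 6339, DCN at 645 and 743, ITGA6 at 656 and 559, KRT14 at 1051 and 1096, and S100A4 at 3991 and 3923. TP73 (426 and 197 CPM), IL6 (5973 and 11421), VCAM1 (212 and 429) and AREG (882 and 1458) lay further apart. For AREG, 1 COL3A1-high cell held 300 UMIs, and whether it lay among the 59 was not examined. The threshold of 20 UMIs thus cuts a range, not a separate class of cells.

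The COL3A1-high cells also differed among themselves. The 106 cells with 100 or more COL3A1 UMIs, set against the 236 cells with 20 to 49, had DCN 4.15-fold (3.75 to 4.59), PDGFRB 2.45-fold (2.27 to 2.65) and THBS1 2.29-fold (1.98 to 2.65) higher, the 3 higher genes of 195 measured (1.54%). For THBS1, 1 COL3A1-high cell held 87 UMIs (10.7% of those in COL3A1-high cells), and whether it lay among the 106 was not examined. The 6 lower genes (3.08%) were S100A8, CCL3, CD274, CCND2, IL7R and KRT14, with ratios from 0.255 to 0.483, on as few as 6 and 52 UMIs for S100A8. COL1A1, at 7239 against 6273 CPM, differed little over the same span. COL1A2, another collagen gene of the matrix, had 0 and 1 UMIs in these 2 sets and was not measured.

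DCN was detected in some COL3A1-high cells and not in others. The 179 COL3A1-high cells with a DCN UMI and the 233 without had like depth (medians 3588 and 3736 UMIs) and median COL3A1 of 50 and 40 UMIs. The DCN-positive cells had PDGFRB at 2500 against 1302 CPM and S100A4 at 6261 against 3858 CPM, and they had KRT17 at 4087 against 7405 CPM and KRT14 at 193 against 1075 CPM. FN1 (43375 against 47072 CPM) and IGFBP5 (15332 against 14020 CPM) differed far less. Most KRT14 UMIs lay in few cells. The 14 COL3A1-high cells richest in KRT14, described below, held 871 KRT14 UMIs, against 322 in the other 398. Those 14 cells held 4 DCN UMIs, against 1911 in the other 398, so at most 4 of them were DCN-positive. The KRT14 gap without these 14 cells was not examined. The 10% of COL3A1-high cells with most DCN held 83.2% of its UMIs, and 1 cell held 13.0% of them.

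A few COL3A1-high cells had a basal profile. KRT14 reached 20 UMIs in 14 of 412 cells (3.40%, 1.87 to 5.64%) and in 980 of 4893 others (20%). Those 14 cells had COL1A1 at 6622 CPM, against 6604 in the other 398, but DCN at 47.3 against 1165, S100A4 at 1691 against 5069, ITGA6 at 1525 against 431, TP73 at 851 against 202 and KRT17 at 16802 against 5403 CPM. They also held 411 of the 1279 AREG UMIs of the group. A single COL3A1-high cell held 300 AREG UMIs (23.5%), and whether it was among these 14 was not examined. The 14 cells had a median depth of 6031.5 UMIs against 3613.5. No doublet caller was run, and the part of mixed barcodes in these values was not tested. ALDH1A1 had a UMI in 4.85% of COL3A1-high and 19.9% of other cells, and CCL3 reached 20 UMIs in 1.70% and 1.14%. CDH3 reached 20 UMIs in 0 of 412 COL3A1-high cells and in 3 others. That count of 0 allows a share of up to 0.728% at 3 counts, and the 95% Clopper-Pearson limit is 0.891%.

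The same threshold was applied to the other 5 matrices. COL3A1-high cells were 113 of 5896 paclitaxel-resistant attached cells (1.92%, 1.58 to 2.30%) and 13 of 7032 doxorubicin-resistant attached cells (0.185%, 0.0985 to 0.316%), both below the 7.77% of naïve attached cells at like depth (medians of 3653, 3814 and 3710 UMIs). In spheroids they were 1292 of 4362 naïve (29.6%), 495 of 3751 paclitaxel-resistant (13.2%) and 105 of 3776 doxorubicin-resistant cells (2.78%). With cells thinned to 1000 UMIs and 5 COL3A1 UMIs asked for, which left out 1920 naïve, 1587 paclitaxel-resistant and 1218 doxorubicin-resistant spheroid cells and 1 attached cell of lower depth, the shares of the remaining cells were 9.06, 2.59 and 0.271% attached and 52.0, 25.9 and 5.31% in spheroids. The order naïve, paclitaxel, doxorubicin held in both cultures, with 1 library each, and 264 barcode labels occurred in both an attached and a spheroid matrix while none was shared within a cartridge.

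Within those matrices the contrast was read in cells of 1000 or more UMIs, because many spheroid barcodes were shallow (other naïve spheroid cells had a median of 424.5 UMIs). Past the size rule in either direction were 3.43% of 204 measured genes in paclitaxel-resistant and 14.7% of 163 in doxorubicin-resistant attached cells, and 4.96% of 242, 4.85% of 227 and 7.62% of 210 in naïve, paclitaxel- and doxorubicin-resistant spheroid cells, against 17.3% of 231 in naïve attached cells. These are cells that the naïve attached rule did not use, although the same gene chose them.

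The 20 genes higher in naïve attached COL3A1-high cells mostly kept that side. In paclitaxel-resistant attached cells the interval lay above 1 for 13 of the 17 measured, against 27.9% of all measured genes, and in doxorubicin-resistant attached cells for 8 of 9, against 25.8%. In spheroids it lay above 1 for 18 of 19 in naïve cells (36.8% of all genes), 15 of 20 in paclitaxel-resistant cells (36.6%) and 13 of 15 in doxorubicin-resistant cells (33.8%). The interval of IL6 in doxorubicin-resistant attached cells lay below 1, and no other of these genes had one below 1 in any of the 5 matrices.

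C4A, COL1A1, FN1, IGFBP5, PDGFRB, S100A4 and TWIST1 had intervals above 1 in every matrix. COL1A1 had ratios of 2.83, 2.17 and 5.00 in naïve, paclitaxel- and doxorubicin-resistant attached cells and 1.46, 1.77 and 2.02 in the spheroids. PDGFRB had 5.29, 1.51 and 3.23 attached and 1.51, 2.01 and 2.14 in spheroids, and IGFBP5 2.13, 2.47 and 9.86 attached and 1.83, 2.00 and 2.11 in spheroids. DCN had 7.86 and 5.76 in naïve and paclitaxel-resistant attached cells and 1.78, 2.01 and 3.01 in spheroids. Over all doxorubicin-resistant attached cells it had 38 UMIs in the 13 COL3A1-high cells and 1777 in the others. That ratio was 10.6 (7.47 to 14.6), but DCN fell short of the expected count asked of a measured gene there. IL6, with 4.10 in naïve attached cells, had 1.00 and 0.783 in the resistant attached cells and 1.14, 1.27 and 1.09 in spheroids, so its large ratio was seen in naïve attached cells alone among the 6; the differences between matrices were not tested.

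The 20 lower genes kept their side less often in counts, a difference that was not tested. In paclitaxel-resistant attached cells the interval lay below 1 for 6 of 15 measured (23.5% of all genes) and in doxorubicin-resistant attached cells for 6 of 11 (28.2%). In spheroids it lay below 1 for 12 of 20 in naïve cells (38.8%), 6 of 15 in paclitaxel-resistant cells (39.2%), near the share of all genes, and 8 of 15 in doxorubicin-resistant cells (24.3%). It lay above 1 for 1, 1, 3, 4 and 4 of them in the same order. ITGA6 was below 1 in all 6, at 0.224, 0.788 and 0.517 attached and 0.704, 0.849 and 0.839 in spheroids. KRT14 had 0.179, 0.694 and 0.307 attached and 0.357, 0.631 and 1.24 in spheroids, on few UMIs outside the naïve cells. In naïve spheroids CDH3, TP73 and CCND2 lay on the other side, with ratios of 1.45, 1.59 and 1.23.

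**Figure D4:**
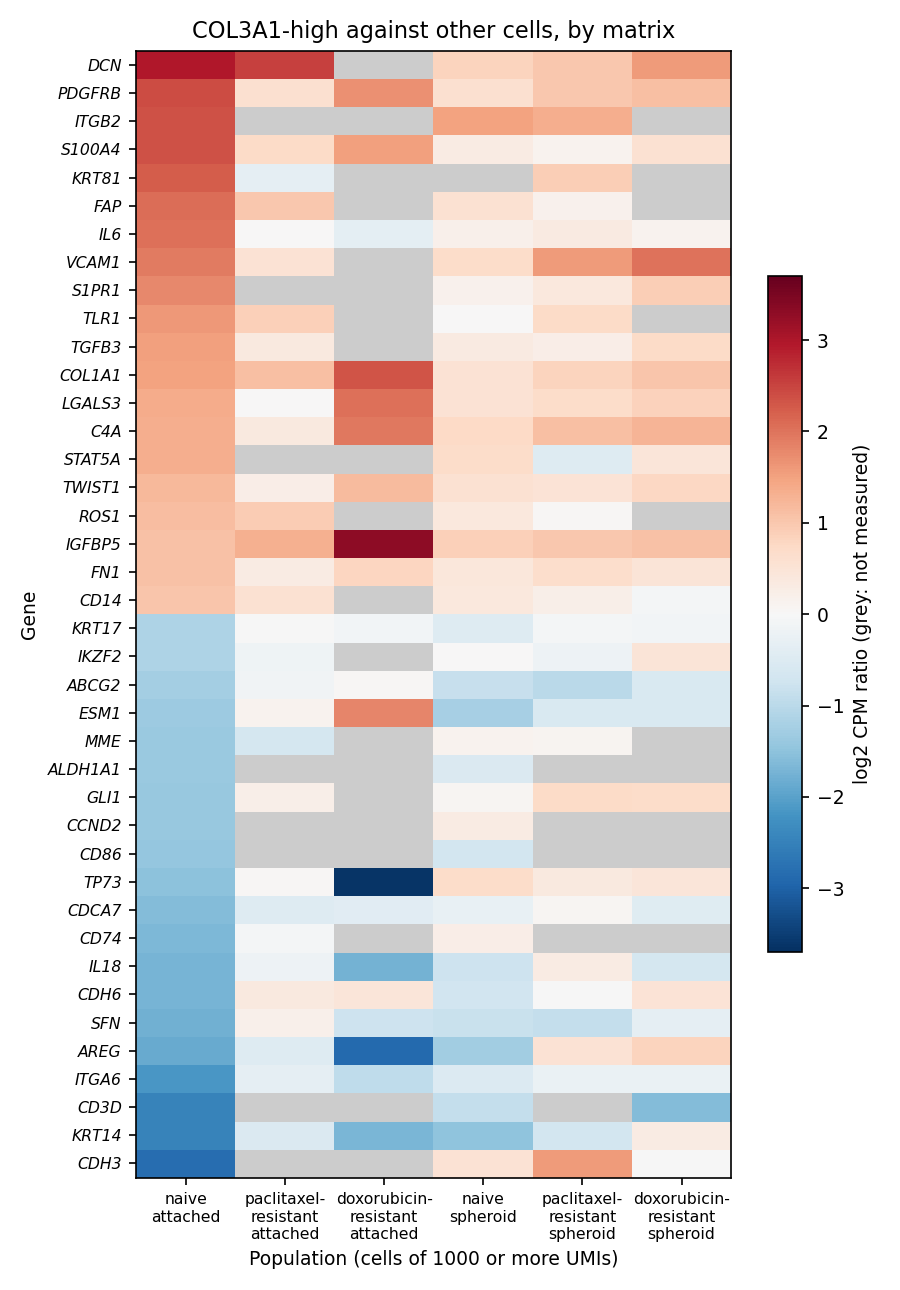
Log2 CPM ratio of COL3A1-high to other cells (colour, red higher, blue lower, grey not measured) for the 40 genes past the size rule in naïve attached cells (rows) in each of the 6 populations (columns), in cells of 1000 or more UMIs. The upper, higher genes stay red in most columns, while many rows under CD14 are paler or mixed outside the first column. The doxorubicin-resistant attached column rests on 13 cells, and there TP73 and AREG are a deeper blue than in the first column.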

How the data were processed

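UMIs were counted in 2 libraries (attached and spheroid SUM159 cells) made with a targeted panel on BD Rhapsody cartridges, where each cell shares a microwell with a barcoded bead. The authors deposited raw counts of UMIs per gene and cell, 1 matrix for each of the 6 populations, after RSEC correction of molecule errors on a cloud platform; the submitters' processing notes name hg38, with the aligner not given in the sources used here. RSEC merges near-identical UMIs, so low counts can be understated. Labels tie sample tags to populations but not files to tags, so each matrix was assigned by the population in its file name. Attached cells numbered 18233, with 373 symbols over all matrices, of which 363 were current RefSeq symbols (GRCh38.p14). The naïve attached matrix held 21423102 UMIs, with medians of 3710 UMIs and 135 genes per cell.

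Counts were summed over COL3A1-high and other cells and expressed as CPM without COL3A1 (Python 3.11.15, numpy 2.4.6, scipy 1.17.1, pandas 2.3.3). No barcode was filtered and no doublet caller was run. A gene was measured with at least 50 UMIs in both groups together and at least 10 expected in the smaller. Ratios carry exact conditional binomial intervals, shares Clopper-Pearson intervals and levels Poisson intervals, at 95%; a count of 0 is given an upper limit of 3 counts. The code was tested on simulated data. Named genes were the 15 largest ratios each way past the size rule, the markers, TP73, CDH3 and ITGA6, the 2 highest and 2 lowest of each list with 4 or more measured members, GAPDH, ABCB1 and ABCG2. Further genes, such as VIM, ACTA2, CAV1, PLAU, CXCL8, SNAI2, KRT5, MLPH and RUNX3, were chosen after their values were seen. The cells, lists and rules were chosen with earlier results of these data known.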

Additional observations from a re-analysis of the deposited data

Results flagged for a closer look

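CCND2, CDH3 and TP73 are set out here because their contrast between COL3A1-high and other cells had opposite directions in the naïve attached and naïve spheroid matrices, with intervals that left out 1 in both, in all cells and in cells of 1000 or more UMIs. CDH3 had a ratio of 0.141 in attached cells and 1.46 (1.35 to 1.58) in spheroid cells, or 1.45 (1.34 to 1.58) in spheroid cells of 1000 or more UMIs. TP73 had 0.352 in attached cells and 1.61 (1.48 to 1.76) in spheroid cells, or 1.59 (1.46 to 1.74) at 1000 or more UMIs. CCND2 had 0.378 in attached cells and 1.26 (1.07 to 1.48) in spheroid cells, or 1.23 (1.05 to 1.46) at 1000 or more UMIs. The difference between the cultures was not tested, since each had 1 library on its own cartridge, so culture and cartridge cannot be told apart. The COL3A1-high spheroid cells were also deeper than the others (medians of 4069 and 3188 UMIs even with that limit). CD74 (1.24, 1.02 to 1.52) and MME (1.14, 1.04 to 1.26) also lay above 1 over all naïve spheroid cells, but in cells of 1000 or more UMIs their intervals held 1 (0.973 to 1.46 and 0.998 to 1.21).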

How the results depend on the processing

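The number of COL3A1-high cells follows from the threshold: 10 UMIs gave 12.3% and 40 UMIs gave 4.22% of naïve attached cells, against 7.77%; without the deepest 5% of cells the share was 7.48%. Over 15 settings the genes past the size rule numbered 15 to 24 higher and 18 to 25 lower. Values of single genes were compared in 13 settings, for named genes only, and none of the named ratios reversed. Of 452 values of the 35 named genes past the rule, 440 stayed past it. The 12 that did not belonged to CD3D, CD86, ESM1, FAP and S1PR1, the rarest of these genes. CD14, FN1, ROS1, KRT17 and IKZF2 also passed the rule, close to its fold limit, but were not among the 35. Whether they stayed past it under other settings was not examined. Against cells with no COL3A1 the ratios grew (DCN 19.3, S100A4 11.3, ITGB2 10.8, PDGFRB 9.59), since cells under the threshold are left out. Among cells between the quartiles of depth DCN had 13.0, KRT14 0.0944, AREG 0.122, CD74 0.101 and ALDH1A1 0.172; the cause was not tested. Setting the top COL3A1-high cell of each gene to 0, and leaving out cells of more than 5 ABCB1 UMIs, both chosen after seeing the data, gave 19 and 20 higher and 22 and 21 lower genes. No paired analysis was possible because each population was measured once. Depth limits the lists of other cell types most, where most genes had 10 or fewer UMIs.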
